A study of Mus musculus with 6 samples.

Results

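Genes of the Notch pathway were measured in the glomeruli, which filter the blood in the kidney, of BXSB/MpJ mice. The genes are the receptors Notch1, Notch2, Notch3 and Notch4, the ligands Jag1 and Dll4, and the target genes Hes1, Hey1, Hey2 and Heyl. Every array spot that is not a control spot and carries one of these 10 names was taken, which gave 12 probes of 55681 on the array and 10 gene names of 34844. The 10 genes were chosen on their signals in these same arrays, 3 Yaa against 3 control, with the differences already known, so those differences are given as a description and without p-values. All 10 were among the 20716 genes bright enough to be tested.

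The samples came from male mice aged 4 months. BXSB/MpJ-Yaa males, which develop glomerulonephritis, carry a piece of the X chromosome copied onto the Y chromosome (the Yaa mutation), and BXSB/MpJ-Yaa+ males carry the normal Y chromosome on the same recombinant background of C57BL/6 and SB/Le and served as controls. Glomeruli were taken by bead perfusion, 6 glomerular populations per strain were pooled by 2, and each of the 3 pools per strain was hybridised to 1 array with 1 dye, Cy3. Every pool therefore mixes material from 2 populations, and the strains differ in disease as well as in the Y chromosome. Title, description and genotype gave the same strain for each array and the source name gave the other one. Tlr7, a gene of the copied X segment, had control values of 1.63, 1.67 and 1.60 and Yaa values of 2.48, 2.60 and 2.57 (log2 scale), so it was higher on all 3 arrays labelled Yaa.

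Each value below is the log2 of a probe's signal over the 75th percentile of its array, so 0 is that percentile and a step of 1 is a doubling. Probes differ in how strongly they bind, so values are set side by side for a gene across arrays and not between genes. The 75th percentile lay between 235.1 and 377.3 signal units, highest on Yaa replicate 3, and 50.5% to 59.8% of the spots were well above background. All 6 arrays lay on 1 slide, with the control arrays at one set of positions and the Yaa arrays at the other, so that position and strain cannot be told apart. The small number of arrays limits the precision of every value. Differences are Yaa minus control ± SE from limma with n = 3 arrays per group. The median difference of all genes tested was -0.11, and a gene near that value moved like the bulk of the array.

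Notch signalling passes between touching cells. A ligand of the Jagged or Delta-like type on one cell binds a Notch receptor on its neighbour, the receptor is cut by an ADAM protease and then by γ-secretase, and the freed inner part enters the nucleus. There it joins the DNA-binding protein RBPJ and a Mastermind coactivator and switches on target genes, among them the Hes and Hey genes, which encode repressors of the basic helix-loop-helix class. In blood vessels Dll4, Notch1 and Notch4 belong mainly to endothelium and Notch3 to the smooth muscle and pericytes around it, and in the kidney Notch signals help to form the nephron and are known to be switched on again in injured podocytes.

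Heyl was 1.90-fold, Hey1 1.63-fold and Notch3 1.40-fold lower in Yaa glomeruli than in controls. Hey2 read 2.28-fold lower, but its probe was well above background on only 1 of 3 Yaa arrays, so the size of that fold is not settled. The Hey2 difference of -1.19 on the log2 scale was -0.29 with normexp background correction. Notch2, at 1.39-fold higher, was the one member with a positive difference. Jag1, Notch4 and Hes1 had differences within 0.10 of the median of all genes. The median of the 10 differences was -0.33, and 9 of the 10 were below 0, where 66.5% of all genes tested were below 0.

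**Figure D1:**
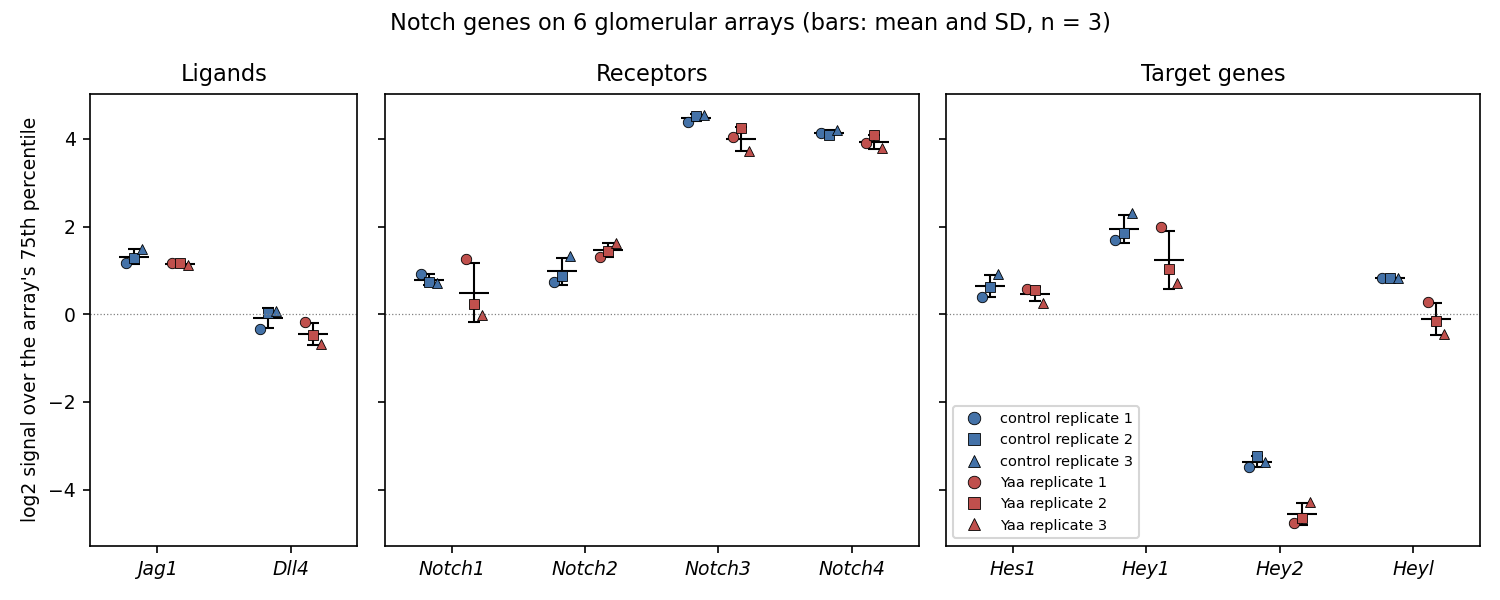
Log2 signal over the array's 75th percentile (vertical axis) for each of the 10 genes (horizontal axis), with 3 control arrays in blue and 3 Yaa arrays in red, a marker shape for each replicate number, and bars for the mean and SD. The control values of Heyl lie on top of each other near 0.83 and all 3 Yaa values lie below them. Hey2 and Notch3 are also lower on every Yaa array than on any control array.

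Counting calls, 1 of the 10 genes (Hey2, lower) passed an adjusted p of 0.05 in limma's test with Benjamini-Hochberg adjustment, where 3.81% of all genes tested passed it, 2.96% higher and 0.850% lower. The Hey2 call was lost with normexp correction, without the filter on dim probes, and without control replicate 2 or 3. In 3 of the 10 (Hey2, Heyl and Notch3) every Yaa array lay below every control array, where 25.2% of all genes kept the groups apart, 17.4% with Yaa lower and 7.81% with Yaa higher. These calls come from the contrast with which the genes were chosen, and nothing is read from them. In RNA of whole glomeruli, fewer cells of a type and less RNA in each cell cannot be told apart.

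**Figure D2:**
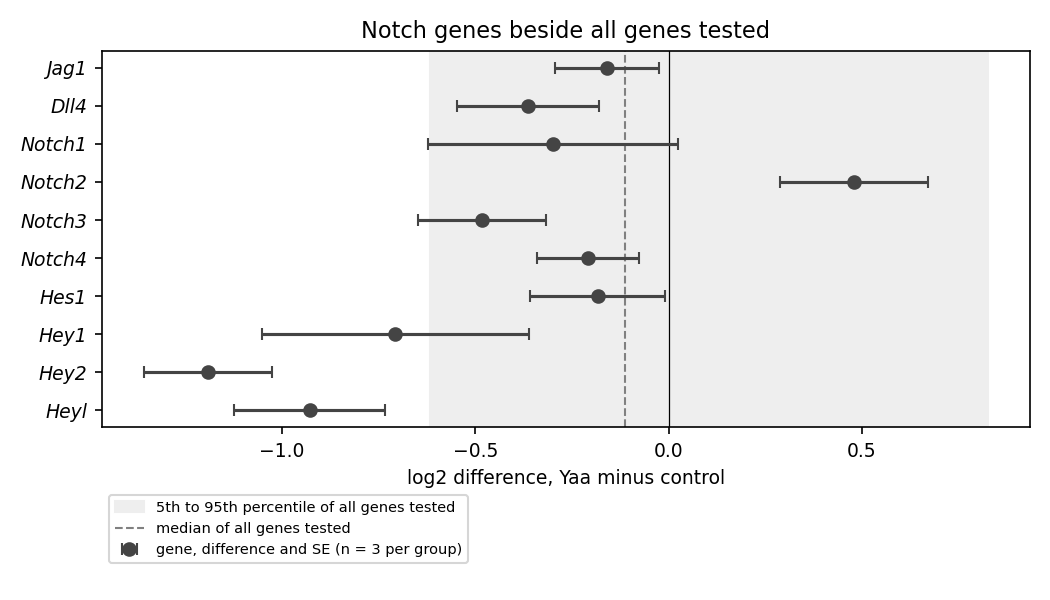
Difference between Yaa and control glomeruli on the log2 scale (horizontal axis) for each gene, with SE as bars, on a grey band that spans the 5th to 95th percentile of all genes tested and a dashed line at their median of -0.11. Hey1, Hey2 and Heyl lie to the left of the band, whose lower edge is at -0.62, and Notch2 lies to the right of 0.

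Among the ligands, Jag1, which encodes Jagged1, was read by a probe on chromosome 2 at 136907433 to 136907492 (mm9, minus strand). It stood at 1.16, 1.28 and 1.50 on control replicates 1 to 3 and at 1.18, 1.16 and 1.13 on Yaa replicates 1 to 3. The Yaa arrays lay closer together (SD 0.025) than the controls (SD 0.17), at the low end of the control values, which they overlapped, and the difference was -0.16 ± 0.13.

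Dll4 encodes Delta-like 4, the ligand of arterial endothelium, and its probe lies on chromosome 2 at 119160779 to 119160838 (mm9, plus strand). Its values were -0.34, 0.02 and 0.08 in controls and -0.18, -0.48 and -0.67 in Yaa glomeruli. The groups overlapped through control replicate 1 and Yaa replicate 1, and the difference was -0.36 ± 0.18. Leaving out Yaa replicate 3 gave -0.25, the smallest difference with 1 array left out, and leaving out Yaa replicate 1 gave -0.50, the largest.

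The receptors had differences of both signs. Notch1 was read by a pair of probes. The bright one, on chromosome 2 at 26319440 to 26319499 (mm9, minus strand), starts at base 5898 of the array's target transcript. Its sequence is shown because it is the one on which the Notch1 values rest.
Notch1 probe: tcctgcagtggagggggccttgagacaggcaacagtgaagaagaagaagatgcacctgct

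This Notch1 probe read 0.93, 0.73 and 0.72 in controls and 1.26, 0.24 and -0.02 on Yaa replicates 1 to 3. Yaa replicate 1 was above all controls and the other Yaa arrays below all of them, so the SD was 0.68 among Yaa arrays against 0.12 among controls. The difference of -0.30 ± 0.32 became -0.04 without Yaa replicate 3 and -0.68 without Yaa replicate 1. The other Notch1 probe, from 26314630 to 26314689, was well above background on 1 control and 2 Yaa arrays and stayed out of the test, with a difference of -0.17.

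Notch2, a receptor needed for the proximal part of the nephron, was read best by a probe on chromosome 3 at 97953914 to 97953973 (mm9, plus strand). It stood at 0.73, 0.88 and 1.33 in controls and at 1.31, 1.44 and 1.63 in Yaa glomeruli. Control replicate 3 was level with the lowest Yaa array, so the groups overlapped, and the difference was 0.48 ± 0.19, above 92.1% of all genes. The other Notch2 probe, from 97951233 to 97951292, was dim and scattered, with Yaa values from -4.36 to -2.20 and a difference of 0.32.

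Notch3, the receptor of mural cells, was read by 1 probe on chromosome 17 at 32257848 to 32257907 (mm9, minus strand). Its values were 4.39, 4.52 and 4.54 in controls and 4.03, 4.26 and 3.72 in Yaa glomeruli. All Yaa arrays lay below all control arrays with a difference of -0.48 ± 0.17. Only 9.19% of all genes had a difference as low or lower.

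Notch4, the receptor of endothelium, has its probe on chromosome 17 at 34725120 to 34725179 (mm9, plus strand). Its control values were 4.13, 4.09 and 4.20 and its Yaa values 3.92, 4.09 and 3.79. Yaa replicate 2 was level with control replicate 2, the other Yaa arrays were lower, and the difference was -0.21 ± 0.13, which is -0.10 from the median of all genes.

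Hes1, the target that answers Notch in many cell types, differed least among the target genes. Its probe is on chromosome 16 at 30067820 to 30067879 (mm9, plus strand) and gave 0.40, 0.62 and 0.91 in controls and 0.57, 0.55 and 0.27 in Yaa glomeruli. The groups overlapped and the difference was -0.18 ± 0.17, -0.07 from the median of all genes.

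Hey1, an endothelial target of Notch, was read on chromosome 3 at 8663432 to 8663491 (mm9, minus strand). It stood at 1.69, 1.84 and 2.31 in controls and 1.99, 1.03 and 0.71 in Yaa glomeruli. Yaa replicate 1 lay inside the control range and the other Yaa arrays well below it, so that the difference of -0.71 ± 0.35 had the largest SE of the 10 genes. It was -0.44 without Yaa replicate 3, -0.60 without Yaa replicate 2 and -1.08 without Yaa replicate 1.

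Heyl, a target of Notch3 in mural cells, was read on chromosome 4 at 122926975 to 122927034 (mm9, plus strand). Its control values were 0.82, 0.82 and 0.83, an SD of 0.0043, and its Yaa values were 0.28, -0.15 and -0.44. All Yaa arrays were lower than all controls, and the Yaa arrays differed more among themselves than the controls did. The difference was -0.93 ± 0.20, among the lowest 1.35% of all genes.

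Hey2, a target gene of arterial endothelium, had the dimmest probe of those that stand for the 10 genes, on chromosome 10 at 30552729 to 30552788 (mm9, minus strand). Its signals before scaling were 21.5, 24.9 and 25.5 units in controls and 9.13, 10.2 and 19.6 units in Yaa glomeruli, which gave -3.48, -3.24 and -3.37 against -4.76, -4.64 and -4.27 on the log2 scale. All Yaa values were below all control values, with a difference of -1.19 ± 0.17. The probe was well above background on all 3 control arrays but only on Yaa replicate 3, so that it entered the test through the controls, the group in which it is high. With normexp background correction, which adds an offset that shrinks dim signals, its difference was -0.29.

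RBPJ reads the core letters TGGGAA, and the promoter windows of RefSeq on GRCm38.p6, 250 bases before to 50 after each gene's start, were searched for them on both strands. A window was found for 7 of the 10 genes, without Hes1, Hey1 and Heyl. Of the 7, Hey2 alone held the core, at 2 places, where 25.6% of all 32851 windows held it at least once and 3.79% at least 2 times. One of these begins 207 bases before the start, on the minus strand of the gene, and the other 3 bases before it and runs across the start. The 250 bases before the start of Hey2, at chr10:30842784-30843033 on the minus strand, are shown because no other window of the 7 held the core; capitals mark the core, of which the last one is cut at the start.
Hey2 promoter: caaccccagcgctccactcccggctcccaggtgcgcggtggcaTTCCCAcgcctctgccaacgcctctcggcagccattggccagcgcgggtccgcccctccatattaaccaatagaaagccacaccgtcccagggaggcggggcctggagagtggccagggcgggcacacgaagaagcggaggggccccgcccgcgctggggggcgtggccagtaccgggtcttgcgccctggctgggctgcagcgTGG
Hey2 core across the start: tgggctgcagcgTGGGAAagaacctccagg

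Hes and Hey proteins themselves bind boxes such as CACGTG and CACGNG, of which the first is a case of the second. G and C made up 55.7% to 73% of the letters in the 7 windows, against a median of 52.7% for all windows. The part of this in the counts that follow was not tested. None of the 7 windows held CACGTG, which 7.15% of all windows hold, and 4 held CACGNG, which 27.5% hold. They are shown with the box in capitals, for the receptor with the lowest difference, the receptor with a positive one, and both ligands, for each of which the box nearest to the start is given.
Notch3: gatggatgtgctCACGAGctggatacctgt
Notch2: gaggcggaaggaCACGCGggccgcccagcc
Dll4: ctgctcgccgggCACGCGcagagctggaag
Jag1: gagccaggcgggCACGCGtcattgtgttac

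A match is a run of letters and was not tied to binding in these samples. The box begins 204 bases before the start in Notch3, 42 in Notch2, 195 in Dll4 and 171 in Jag1.

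The rest of the pathway was read from a list of 59 genes, of which 54 were tested. None passed limma's test at an adjusted p of 0.05, where 3.81% of all genes passed. At an unadjusted p of 0.05, 3 were higher and 4 lower, where 16.1% of all genes stood past it. The median difference of the 54 was -0.14, close to -0.11 for all genes, and 14 of them (25.9%) lay lower and 3 (5.56%) higher on every Yaa array than on any control array, against 17.4% and 7.81% of all genes.

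**Figure D3:**
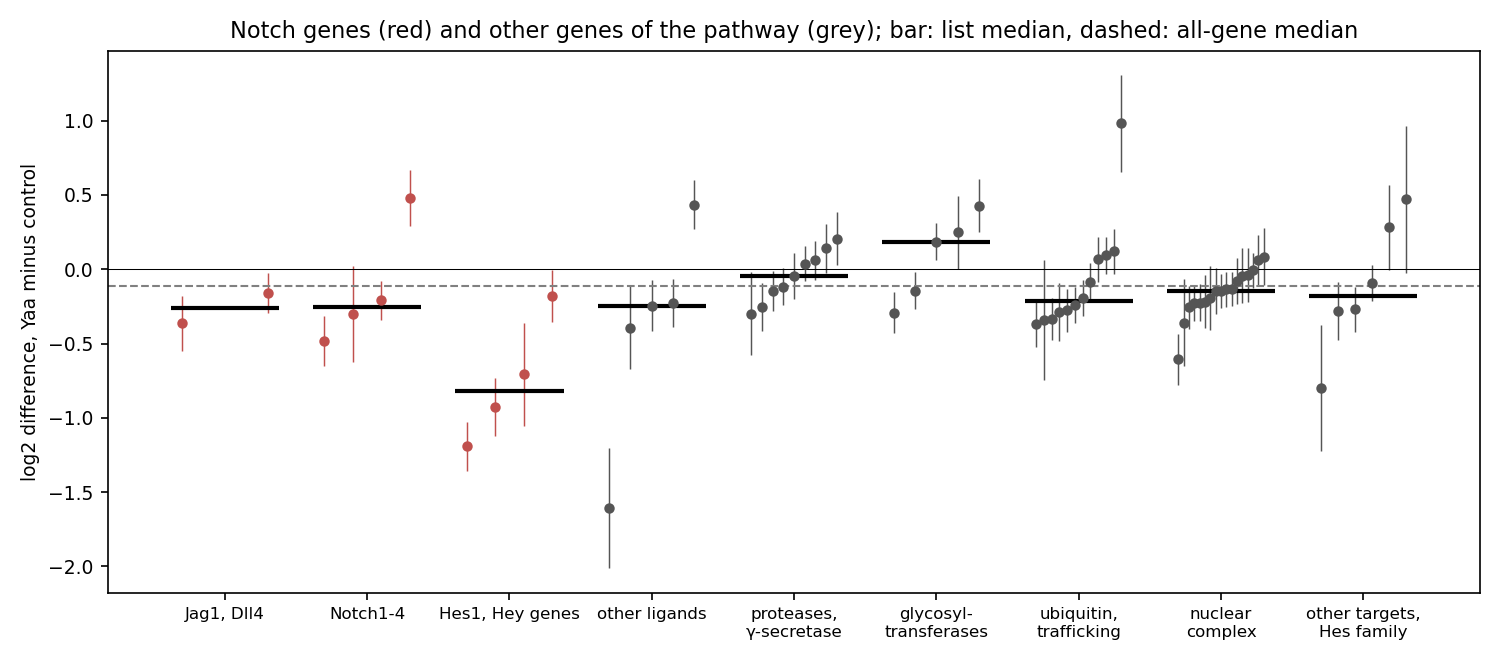
Difference between Yaa and control glomeruli on the log2 scale (vertical axis) for the 10 genes (red, in 3 groups) and 54 other pathway genes (grey, in 6 groups), with SE as thin bars, the median of each group as a thick bar and the median of all genes as a dashed line. The median of the 4 target genes, which were chosen with their differences known, is -0.82 (-0.47 with normexp correction). That of the proteases and γ-secretase subunits is -0.05, and the pathway lists too were drawn up with earlier results of these data known.

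Among the other ligands none of 5 tested genes passed, and the median was -0.25. Dlk1, a non-canonical ligand, had the largest difference of the list at -1.61 ± 0.41 (limma adjusted p = 0.0965), from 3.62, 4.02 and 4.29 in controls to 3.27, 1.68 and 2.16 in Yaa glomeruli. It passed in 1 alternative, without Yaa replicate 1. Dll1, a canonical Delta-like ligand, was at 0.44 ± 0.16, Dlk2 at -0.25 ± 0.17 and Dll3 at -0.39 ± 0.28. The single Dner probe was above background on 0 of 6 arrays.

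Of 9 tested enzymes that cut the receptor none passed, and their median was -0.05. Among the pathway lists this median was the closest to no difference. That of the nuclear complex, at -0.14, lay closer to the -0.11 of all genes. Furin, which makes the first cut of the receptor, was at -0.25 ± 0.16, and Adam17, a protease of the outer part, at 0.21 ± 0.18. The γ-secretase subunits Psenen and Ncstn were at -0.15 ± 0.13 and -0.30 ± 0.28. Of 5 glycosyltransferases, which tune the affinity of receptors for ligands, none passed, with a median of 0.19. The fringe genes Lfng, Rfng and Mfng were at 0.43 ± 0.18, -0.29 ± 0.14 and 0.19 ± 0.13, and Pofut1, which adds fucose to the receptor, at -0.15 ± 0.12. Lfng lay higher and Rfng lower on all Yaa arrays than on any control array, as did 7.81% and 17.4% of all genes.

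None of the 12 genes of ubiquitin ligases and trafficking passed, with a median of -0.22. Dtx3l was at 0.98 ± 0.32 (limma adjusted p = 0.199), with 1.02, 0.83 and 0.94 in controls and 1.41, 1.63 and 2.69 in Yaa glomeruli, the last on Yaa replicate 3. Mib1 and Mib2, the ligases that make ligands active, were at -0.37 ± 0.15 and -0.24 ± 0.12, and Numb, an inhibitor of the receptor, at -0.34 ± 0.14. Of the 12 genes, 4 were lower on every Yaa array than on any control array, these 3 among them, and 1, Dtx3l, was higher. Of all genes, 17.4% were lower and 7.81% higher in this way.

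Of the 17 genes of the nuclear complex none passed, 15 had a difference below 0 and the median was -0.14. The coactivator gene Maml3 was at -0.61 ± 0.17 (limma adjusted p = 0.143), from 3.75, 3.86 and 3.60 to 3.42, 3.08 and 2.88. The corepressor genes Ctbp1 and Spen were at -0.23 ± 0.12 and -0.23 ± 0.13, and Rbpj itself was at -0.14 ± 0.11. The group of other targets and Hes relatives had 6 tested genes of 9, none past the test and a median of -0.18. Nrarp, a target that feeds back on the receptor, was at -0.27 ± 0.15, Hes7 at -0.28 ± 0.20, Bhlhe41 at -0.80 ± 0.43 and Bhlhe40 at 0.28 ± 0.29. Hes5, a main target elsewhere, was well above background on 3 of 6 arrays and was not tested.

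Markers of the cells that a glomerular preparation holds were read on the same arrays. Their counts below stand beside 16.1% of all genes past an unadjusted p of 0.05 and 66.5% of all genes below 0. Of 14 endothelial markers none passed limma's adjusted test (2 higher and 4 lower at an unadjusted p of 0.05), the median was -0.23 and the summed level, on the linear scale in units of the 75th percentile, ran from 715.1 to 834.7 in controls and from 502.2 to 667.2 in Yaa glomeruli. Plvap, of fenestrated endothelium, was at 0.71 ± 0.18 and the VEGF receptor gene Flt1 at -0.50 ± 0.13. Of 6 arterial markers none passed (4 lower at an unadjusted p of 0.05 in limma), all 6 were below 0 and the median was -0.57, with a summed level of 108.8 to 130.5 in controls and 64.7 to 94.5 in Yaa glomeruli. The connexin gene Gja5 (-0.89 ± 0.19, limma adjusted p = 0.0565) and Efnb2 (-0.64 ± 0.22) led this list.

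Mesangial and mural markers had a median of -0.31 over 10 genes, none past the test (3 lower at an unadjusted p of 0.05 in limma), and a summed level of 239.4 to 250.4 in controls and 179.9 to 244.9 in Yaa glomeruli. Cspg4, of pericytes, was at -0.95 ± 0.23 and Ren1, the renin gene of juxtaglomerular cells, at -0.70 ± 0.24. Podocyte markers had a median of -0.26 over 8 tested genes of 10, none past the test (1 lower at an unadjusted p of 0.05 in limma), with Lmx1b at -0.65 ± 0.28 and a summed level of 848.7 to 895.2 against 613.8 to 717.0. Nphs1, the nephrin gene, was well above background on 2 of 6 arrays and not tested. The part of these cells in the differences of the Notch genes was not tested.

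**Figure D4:**
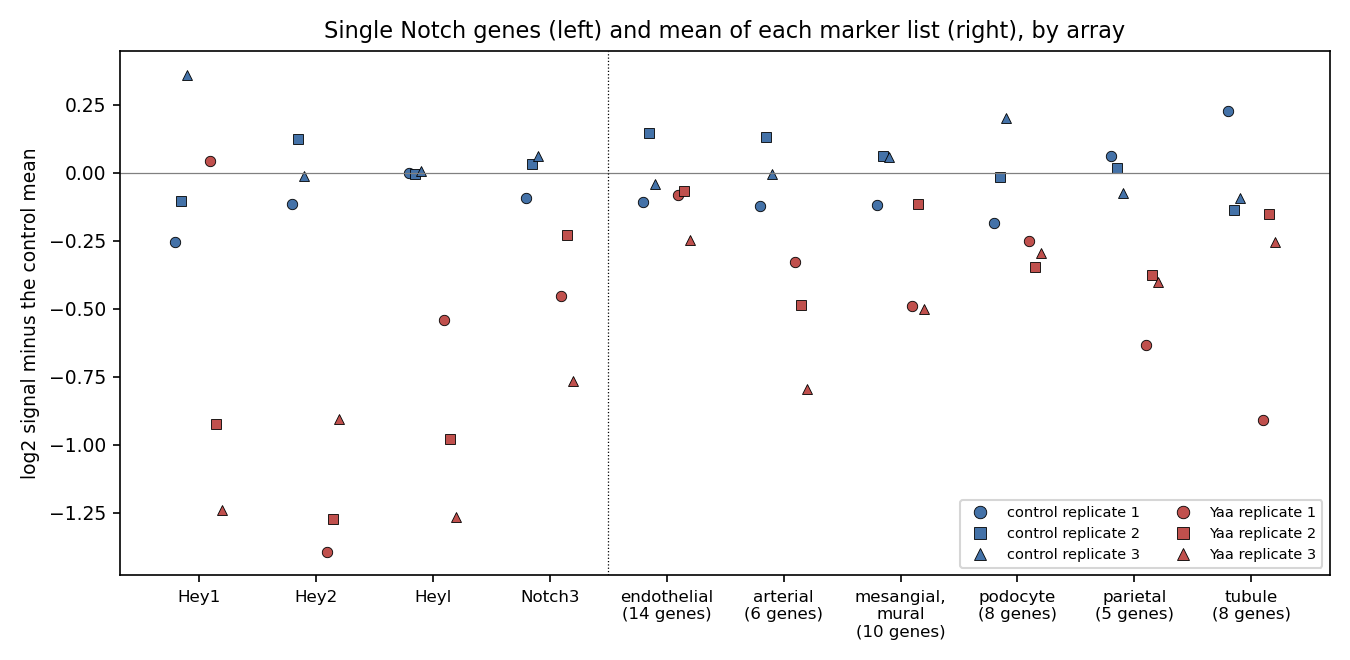
Log2 signal minus the control mean (vertical axis) on each of the 6 arrays for Hey1, Hey2, Heyl and Notch3 on the left and for the mean of 6 marker lists on the right, with blue for control and red for Yaa arrays. The arterial, podocyte, parietal and tubule lists are each lower on every Yaa array than on any control array, and the endothelial and mesangial lists overlap. The arterial list has means of 3.41, 3.25 and 2.94 on Yaa replicates 1 to 3 against 3.61 to 3.87 in controls.

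Parietal and tubular markers had medians of -0.52 over 5 tested genes and -0.41 over 8, with 3 and 2 lower at an unadjusted p of 0.05 in limma. Krt18 and Pax8 were at -0.64 ± 0.16 and -0.61 ± 0.15, Umod was at -0.51 ± 0.15, and Slc12a1, the transporter of the loop of Henle, fell by 0.96 on the log2 scale (SE 0.16, limma adjusted p = 0.0266), as the only one of these lists' genes past the test. Their summed levels were 34.6 to 35.5 against 27.8 to 30.8 for parietal and 93.6 to 110.6 against 55.2 to 87.9 for tubular markers. Macrophage markers rose in 9 of 10, among them Adgre1 by 4.65 ± 0.20 and C1qc by 6.39 ± 0.29 (limma adjusted p = 0.000374 for both), and their summed level was 138.8 to 174.2 in controls and 233.6 to 272.9 in Yaa glomeruli. The remaining one, Itgam, was at -0.50 ± 0.35 and held most of the control sum, 122.9 to 155.6 units. That level rests on 1 probe, the brightest kept, and how well the probe reads Itgam was not tested. The other 9, summed without it after their values were seen, stood at 15.9 to 18.6 units in controls and 112.0 to 175.4 in Yaa glomeruli. C1qa and Ms4a7 were well above background on 1 of 3 control arrays. Of 8 lymphocyte markers none passed (2 higher at an unadjusted p of 0.05 in limma), with Cd3g at 2.01 ± 0.81, Cd79b at 0.92 ± 0.29 and summed levels of 7.59 to 10.6 and 9.90 to 15.8. Cd3g varied widely among the Yaa arrays, at -1.79, -2.96 and 0.60 on replicates 1 to 3, against -3.58 to -3.14 in controls. For the cells of these lists too, their part was not tested.

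The genes whose values over the 6 arrays lay closest to those of Hey2 and Heyl, the members with the largest differences on the scale used here, were sought among 13169 tested genes with an established symbol, by the root mean square difference after centring each gene. For Hey2, whose values on Yaa replicates 1 and 2 were not well above background, they were Akr1b7 at 0.115, Sox8 at 0.121 and Slc22a4 at 0.132 on the log2 scale. For Heyl they were Bmp3 at 0.0846, Mgat5b at 0.0904 and Foxo4 at 0.0968. Their differences ran from -1.22 to -0.96 beside Hey2 and from -0.91 to -0.76 beside Heyl. They were picked for that likeness, so it is a description of these arrays.

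Across the alternatives tried, 9 of the 10 genes kept the sign of a negative difference in all 14 and Notch2 kept a positive one. No difference changed when the filter on dim probes was removed, a replicate block added or the variance model changed. These alternatives bear on the SE and the calls and say nothing on the sign. The mean of all kept probes changed only the difference of Notch2. Hey2 moved by more than the spread of its replicates in 1 of the 14, the normexp correction, and the other 9 genes in none.

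**Figure D5:**
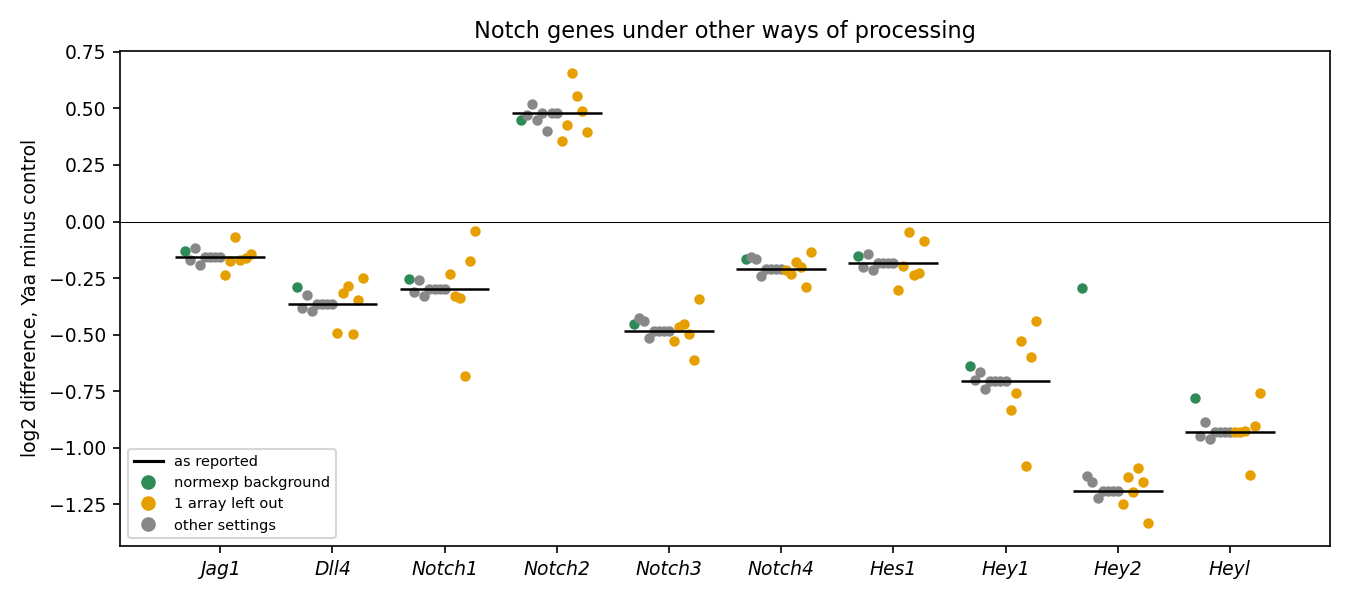
Difference between Yaa and control glomeruli on the log2 scale (vertical axis) of each gene under 14 alternatives, with the reported value as a black bar, normexp background correction in green, arrays left out in orange and other settings in grey. Hey2 has one point apart from the rest, at -0.29 with normexp correction, and Notch1 spreads from -0.68 to -0.04 as Yaa arrays are left out.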

How the data were processed

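Total RNA of 6 glomerular pools was hybridised to 1-colour arrays, per the labels. The authors' deposited files hold signal intensity from Agilent Feature Extraction 10.7.3.1 per the file headers (9.5.3 per the submitters' processing notes), background-subtracted and detrended within each array and not normalized between arrays. The members and lists were chosen with earlier results of these data known. Control spots (3671) and outlier spots were left out, log2 was taken, spots of a probe were averaged and the array's 75th percentile over probes was subtracted. Probes that the scanner software marked well above background on each array of at least 1 group were kept, and the brightest kept probe stood for its gene (20716 genes). The strains were set against each other in limma (version 3.58.1, R 4.3.3), two-sided, and the code was tested on simulated data. The text names all 10 genes, up to 4 genes of each pathway list and 2 of each marker list with the smallest adjusted p, and 3 genes closest to each of the 2 members with the largest differences; Rbpj, Hes5, Dner, Nphs1, C1qa, Ms4a7 and Tlr7 were added by hand. Some genes that this rule names are not reported here. Aph1c was not matched on the array. A pool joins 2 of the 6 populations of a strain, so p-values measure the spread between pools. Same-numbered control and Yaa arrays had correlated deviations from their group means (0.126, 0.205 and 0.218), with -0.194 to 0.0279 for other pairs. Deviations cancel out within a group, so the other pairs are not an independent comparison. Same-numbered arrays also shared the second number of their slide position, so a pairing and a position cannot be told apart. The numbers were taken as pairs in a fit with a replicate block, and no label states the pairing. Probe coordinates are on mm9, of which no annotation was used. Alternatives changed the background correction, scaling, filter, probe choice, variance model, replicate block and the arrays used; scaling over spots was added after seeing the data.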

Additional observations from a re-analysis of the deposited data

How the results depend on the processing

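The differences of the 10 Notch genes kept their sign under all 14 alternatives. Removal of the filter, the replicate block and the variance model left every one of these differences as it was. Without the filter on dim probes, 396 of all genes passed in place of 790, 375 higher and 21 lower, and 0 of the 10 Notch genes passed (3 at an unadjusted p of 0.05 in limma). With the replicate block, which takes the replicate numbers as pairs, 98 genes were lower in place of 176, and the block changed no call among the Notch or other pathway genes. With the array median for scaling 2 Notch genes passed (Hey2 and Heyl), and with an intensity trend and robust variances the same 2. With normexp correction Heyl passed and Hey2, at -0.29, did not. With 1 array left out, 399 to 1027 genes passed, 362 to 706 higher and 31 to 321 lower, with the fewest lower calls without control replicate 2 and the most without Yaa replicate 1. Of the Notch genes 0 to 2 passed: 0 without control replicate 2 or 3 (2 and 3 at an unadjusted p of 0.05 in limma) and 2 without Yaa replicate 1. Of the other pathway genes 0 to 1 passed (Dlk1, without Yaa replicate 1), and of the markers 9 to 15. The share of all genes that passed ran from 1.14% to 4.75% over these alternatives. The cause of these shifts was not tested. Dim probes such as that of Hey2 limit what the signal over background can show.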

Other observations

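Within an array the difference between Notch2 and Notch3 needs no scaling between arrays. It was -3.66, -3.64 and -3.21 in controls and -2.73, -2.81 and -2.09 in Yaa glomeruli (log2), so that the difference was higher on every Yaa array than on any control array, by 0.96 on average. The probes bind differently, so only this shift between the groups can be read, not the level of one gene against the other. Heyl against Hes1 gave 0.42, 0.21 and -0.08 in controls and -0.28, -0.70 and -0.71 in Yaa glomeruli. Both pairs were picked after their values were seen and were not tested.

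Of the 10 genes, 6 (Jag1, Dll4, Notch1, Hes1, Hey1 and Heyl) were highest on Yaa replicate 1 and lowest on Yaa replicate 3 among the Yaa arrays, an order that 24.6% of all genes tested shared. Hey2 and Notch2 had the opposite order. The means of the 6 arterial markers, the 5 other ligands and the 17 genes of the nuclear complex had the order of the 6 genes. Those of the other marker lists, the endothelial one among them, and of the other pathway lists did not. The 75th percentile of Yaa replicate 3, at 377.3 signal units, was the highest of the 6, and its part in this order was not tested.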
